A study of Mus musculus with 14 samples.

Results

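The D-type cyclins, their kinase partner *Cdk6* and the CDK inhibitors of the CIP/KIP and INK4 families were followed over 12 weeks of SOX9 induction in epidermal stem cells (EpdSCs). Members were chosen by gene symbol: *Ccnd1*, *Ccnd2*, *Ccnd3*, *Cdk6*, *Cdkn1a*, *Cdkn1b*, *Cdkn1c*, *Cdkn2a* and *Cdkn2b*, 9 of the 54332 genes in the deposited table. RNA-seq had been performed on EpdSCs purified by FACS from mouse back skin, with 2 libraries at each of 5 timepoints.

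All 10 libraries came from K14rtTA; TRE-myc-Sox9 mice of the CD1 strain, labelled male, in which the *Krt14* promoter drives rtTA and doxycycline (DOX) switches on a MYC-tagged *Sox9* transgene. D0 cells were taken at P21, before DOX. W1, W2 and W6 cells were taken after 1, 2 and 6 weeks of DOX, at P28, P35 and P63. W12 cells had 12 weeks of DOX in newborn skin grafted onto immunocompromised hosts, so grafting and the last 6 weeks of induction cannot be told apart. Age rose with time on DOX, and no age-matched mice without the transgene were analysed here. The sort kept cells that were negative for CD31, CD45, CD117, CD140a and CD34, and high for CD49f and Ly6A. Values are TPM, the abundance of a gene's transcripts corrected for their length, on a scale on which every library sums to the same total. TPM carry no depth, so the precision of a low value is unknown.

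Several facts about the libraries bear on the values below. The transgene (MYC-SOX9) stood at 89.6 and 45.6 TPM at D0, 3387 and 3414 at W1, 1892 and 1469 at W2, 1108 and 859 at W6, and 606 and 904 at W12. Its level was thus not steady after induction, being highest at W1. Its part in the later values of the members was not tested. Of 7 basal epidermal markers, *Krt14* was between 20000 and 37670 TPM throughout, but against D0 1 of them was lower at W2, 6 were lower at W6, and 4 were lower and 1 higher at W12. In the same fit 9.89% of all genes were called at W1, 15.7% at W2, 32.4% in the W6 libraries and 43.0% in those of W12, a background for all marker counts. *Krt5* went from 14770 and 14610 TPM at D0 to 7833 and 7343 at W12. The summed TPM of 7 suprabasal markers was 5785 and 1912 at D0, 11940 and 12520 at W6 and 13560 and 11940 at W12, with 2 called higher at W1, 2 at W2 and 4 at W6, and 3 higher and 1 lower at W12. With D0 replicate 2 left out, 1 basal marker was lower at W2, 5 at W6 and 4 at W12, and of the suprabasal markers 1 was higher at W1, 2 at W2 and 3 at W6, and 2 higher and 1 lower at W12. A list of 7 hair follicle markers was drawn up for the bulge and outer root sheath, but it also held *Krt79*, a keratin of the upper follicle. Of the 7, 3 were higher at W1, 3 at W2, 3 higher and 1 lower at W6, and 2 higher and 2 lower at W12. In the fit lacking D0 replicate 2, these counts were 3 higher, 2 higher, 3 higher and 1 lower, and 2 higher and 1 lower. Among them *Krt15*, a keratin of basal and bulge cells, went from 11240 and 11930 TPM at D0 to 322 and 242 at W12, and *Krt17*, a keratin of the outer root sheath, from 1147 and 1430 to 11560 and 6011 at W6. *Krt79* went from 330 and 147 TPM at D0 to 2045 and 2648 at W1, and *Cd34* and *Lgr5* were at 0.593 TPM or less through W2. The part of these markers in the values of the members was not tested. In D0 replicate 2, *Ddx3y* from the Y chromosome was 0.0278 TPM and *Xist* was 4.61 TPM, which goes against the male label. The W12 libraries had *Xist* at 5.51 and 3.50 TPM together with *Ddx3y* at 10.97 and 12.87 TPM, and the remaining 7 libraries had *Xist* at 0.00665 TPM or less and *Ddx3y* between 21.9 and 32.7 TPM. The W12 hosts were female, and the part of host cells in the W12 values was not tested. Calls against D0 are therefore also given without D0 replicate 2, a fit in which 7.86% of all genes were called at W1, 10.9% at W2, 18.0% in the W6 libraries and 28.5% in those of W12. The summed TPM of 6 endothelial markers was 70.7 and 151 at W12 against 0.149 to 2.08 elsewhere, although CD31 was gated out, and *Cd34* was 16.6 and 32.0 TPM at W12 despite the CD34-negative gate. W6 replicate 2 carried 52.2 TPM of 6 fibroblast markers, 51.2 of them *Dcn*, with *Col1a1* at 0.143 and *Pdgfra* at 0.161 TPM. These markers summed to 13.7 and 28.1 TPM at W12, mostly *Dcn* (13.2 and 27.2), and to 4.06 TPM or less at D0, W1 and W2. The summed TPM of 7 melanocyte markers was 2.03 and 6.26 at D0, 5.25 and 12.9 at W6 and 13.5 and 11.8 at W12, although CD117 was gated out. The part of either list in the values of the members was not tested. Immune markers summed to 104 and 126 TPM at W12, almost all of it *Cd74*, with *Ptprc* at 0.0184 and 0.327 TPM. A list of 16 immediate-early and stress genes, drawn up after the data had been seen, summed to 32870 and 53930 TPM at D0 and to between 5890 and 13790 TPM later.

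D-type cyclins bind CDK4 and CDK6 and carry growth signals to the cell-cycle engine. The active kinases phosphorylate the retinoblastoma protein, which then lets go of E2F transcription factors, and E2F switches on cyclin E and the genes of DNA replication. INK4 proteins (p16, encoded by *Cdkn2a*, and p15, encoded by *Cdkn2b*) bind CDK4 and CDK6 and keep cyclin D off them. CIP/KIP proteins (p21, p27 and p57, encoded by *Cdkn1a*, *Cdkn1b* and *Cdkn1c*) act mainly on complexes of CDK2. In epidermis, p21 is a classic target of p53 and is linked to withdrawal from the cycle at the start of differentiation, and loss of the *Cdkn2a* and *Cdkn2b* locus is common in tumours.

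Of the 9 members, 8 averaged 1 TPM or more across the libraries and could be tested, by limma on log2(TPM + 1) with Benjamini-Hochberg adjustment over all 13110 genes tested. *Cdkn2a*, with a mean of 0.220 TPM, did not enter the test. Across all timepoints, 6 of the 8 varied in the F test at an adjusted P under 0.05, among 57.5% of all genes tested. *Ccnd1* (adjusted P = 0.139) and *Cdkn1c* (adjusted P = 0.111) did not pass. Against D0, 3 of the 8 were called at W1, where 9.89% of all genes were, and 3 at W2, where 15.7% were. At W6 the count was 2 against a background of 32.4%, and at W12 it was 4 against 43.0%. Between successive timepoints, none was called from W1 to W2 (background 0.114%, or 15 genes, with 1900 genes and 2 of the members, *Cdkn1a* and *Cdkn1c*, at an unadjusted P under 0.05). From W2 to W6, 1 member was called (background 16.3%), and from W6 to W12 there were 2 (background 20.2%). These shares are near or below the background at W6 and W12, so the counts say nothing particular about the members there. The comparisons with D0 share the same 2 D0 libraries.

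**Figure D1:**
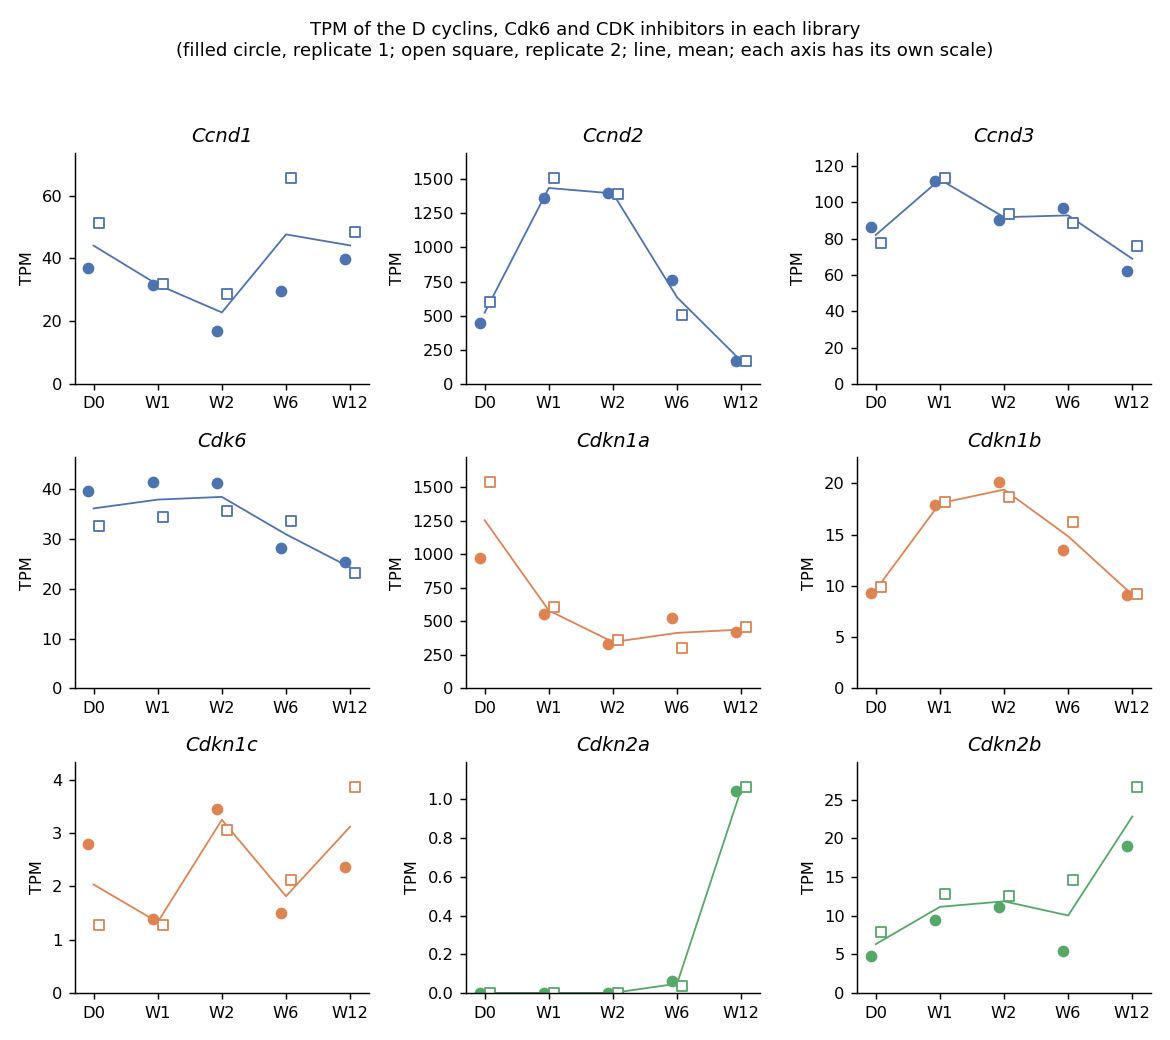
TPM (vertical axes, each with its own scale from 0) of the 9 genes in each library, by timepoint (horizontal axes), with replicate 1 as filled circles, replicate 2 as open squares and the mean as a line. *Ccnd2* was highest at W1 and W2 and lowest at W12, *Cdkn1a* was highest at D0, and *Cdkn2a* was above 0.1 TPM in the W12 libraries alone.

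*Ccnd2* carried most of the D cyclin RNA in every library and had the widest range of fold among the D cyclins. It is encoded at chr6:127125162-127152193 on the minus strand (GRCm38, GENCODE M21, as for the other positions). It was 446 and 598 TPM at D0, 1359 and 1512 at W1, 1397 and 1394 at W2, 764 and 504 at W6, and 168 and 167 at W12. Both W1 and both W2 libraries lay above every other library and both W12 libraries below, while the W6 and D0 ranges overlapped. *Ccnd2* rose by 1.47 on the log2 scale at W1 (SE 0.21, limma adjusted P = 0.00388), a ratio of mean TPM of 2.75, and was still raised by 1.43 at W2 (adjusted P = 0.00326). No change was detected between W1 and W2 (-0.04, 95% interval -0.53 to 0.45). It then fell by 1.17 from W2 to W6 (adjusted P = 0.0121) and by 1.88 from W6 to W12 (adjusted P = 0.000824), which left it 1.62 below D0 (adjusted P = 0.000631), a mean TPM 3.12-fold lower. As RNA of a bulk sort, fewer cells of a type and less RNA per cell cannot be told apart here. Without D0 replicate 2 the changes from D0 were 1.68 at W1 (adjusted P = 0.00717), 1.64 at W2 (adjusted P = 0.00565) and -1.41 at W12 (adjusted P = 0.00433). With just the 4 libraries compared in the fit, the calls at W1 (adjusted P = 0.0519) and from W2 to W6 (adjusted P = 0.0504) ended, and with the filter on low TPM removed that from W2 to W6 did (adjusted P = 0.0505). The call from W2 to W6 also ended without either W2 library (adjusted P = 0.0889 without replicate 1 and 0.0773 without replicate 2), with changes of -1.17 in both cases, and its change was -0.87 without W6 replicate 2 (adjusted P = 0.0404). On the TPM scale the median of all genes moved by -0.16 from W6 to W12, so the drop in *Ccnd2* should be read against that shift. Over the 19 alternatives to the fit, both other scalings among them, that drop lay between -2.18 and -1.58.

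*Ccnd1*, the D cyclin most often linked to mitogen signalling, was low beside *Ccnd2*. The gene lies at chr7:144929931-144939925 on the minus strand. Its levels were 36.8 and 51.3 TPM at D0, 31.4 and 31.8 at W1, 16.8 and 28.7 at W2, 29.5 and 65.8 at W6, and 39.8 and 48.5 at W12. The W1 and W2 libraries all lay below both D0 libraries, but the spread within W2 and W6 was wide. The change from D0 to W2 was -0.95 (SE 0.37, limma adjusted P = 0.118), and that from W2 to W6 was 0.97 (adjusted P = 0.103). Without W6 replicate 2, which was the highest library, the change from D0 to W2 passed (adjusted P = 0.0444), and likewise without W6 replicate 1 (adjusted P = 0.0441), but it was -0.58 without W2 replicate 1 (adjusted P = 0.480). The change from W2 to W6 was 1.54 without W6 replicate 1 (adjusted P = 0.0221), 0.41 without W6 replicate 2 (adjusted P = 0.454) and 0.60 without W2 replicate 1 (adjusted P = 0.448), so its size rests on single libraries. At W12 *Ccnd1* differed from D0 by 0.01 (95% interval -0.83 to 0.86). With D0 replicate 2 left out, the changes were -0.21 at W1, -0.72 at W2, 0.25 in the W6 libraries and 0.25 in those of W12, none of them called (lowest adjusted P = 0.354, at W2). The 3' end of *Ccnd1* overlaps the gene LTO1 on the other strand, with 22.3% of its 31-base words shared in the opposite orientation. LTO1 was listed between 9.40 and 20.6 TPM.

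*Ccnd3* (chr17:47505051-47599691, plus strand), the third D cyclin, varied less than *Ccnd2*. It was 86.4 and 77.6 TPM at D0, 111 and 114 at W1, 90.0 and 93.5 at W2, 97.0 and 88.5 at W6, and 62.0 and 75.7 at W12. Both W1 libraries were above all others and both W12 libraries were below all others, by small margins. It passed the F test (adjusted P = 0.0211), but no single contrast was called: the change was 0.45 at W1 (SE 0.14, limma adjusted P = 0.0816) and -0.43 from W6 to W12 (adjusted P = 0.0638). In the fit lacking D0 replicate 2, the changes from D0 were 0.38 at W1 (adjusted P = 0.191) and -0.33 at W12 (adjusted P = 0.153). The change from W6 to W12 passed without D0 replicate 1 (adjusted P = 0.0453) or without D0 replicate 2 (adjusted P = 0.0453), 2 of 19 alternatives. It was -0.26 under median-ratio scaling (adjusted P = 0.224) and -0.29 without W12 replicate 1 (adjusted P = 0.319).

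*Cdk6* (chr5:3341485-3531008, plus strand), which encodes one of the kinases that D cyclins activate, was 39.6 and 32.7 TPM at D0, 41.4 and 34.4 at W1, 41.2 and 35.7 at W2, 28.2 and 33.6 at W6, and 25.3 and 23.2 at W12. The D0 range overlapped those of W1, W2 and W6, and both W12 libraries were below all others. It fell by 0.55 at W12 against D0 (SE 0.17, limma adjusted P = 0.0316), a ratio of 0.672 in mean TPM. The call ended under quantile normalization (adjusted P = 0.144), under median-ratio scaling (adjusted P = 0.0573), with the filter on low TPM removed (adjusted P = 0.0684), with just the 4 libraries compared in the fit (adjusted P = 0.0807), and without D0 replicate 1 (adjusted P = 0.114), W12 replicate 1 (adjusted P = 0.0840), W12 replicate 2 (adjusted P = 0.139), W2 replicate 1 (adjusted P = 0.0521) or W2 replicate 2 (adjusted P = 0.0519). It held without D0 replicate 2 (-0.68, adjusted P = 0.0350).

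**Figure D2:**
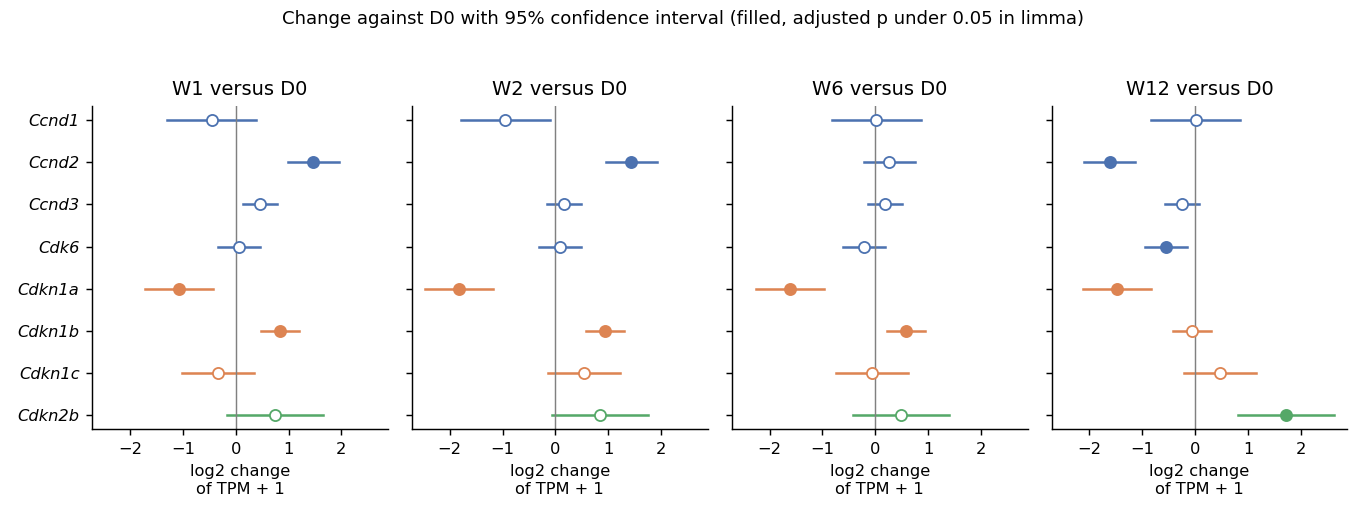
log2 change of TPM + 1 against D0 (horizontal axes) of the 8 tested genes, in 1 panel a timepoint, with 95% confidence intervals from limma as lines, and points filled where the adjusted P was under 0.05. *Ccnd2* changed from 1.47 above D0 at W1 to 1.62 below it at W12, and *Cdkn1a* was below D0 in all 4 comparisons.

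Among the CIP/KIP inhibitors, *Cdkn1a* was by far the most abundant. Its upstream promoter is shown because it holds a p53 element, p21 being a classic target of p53. The gene lies at chr17:29090976-29100727 on the plus strand, and RefSeq gives it a promoter at an upstream and at a downstream start. The window from 250 bases before to 50 bases after the upstream start, chr17:29090729-29091028 (GRCm38.p6, plus strand), is printed 5' to 3' with the element that fits the p53 consensus in capitals:
Cdkn1a, upstream start: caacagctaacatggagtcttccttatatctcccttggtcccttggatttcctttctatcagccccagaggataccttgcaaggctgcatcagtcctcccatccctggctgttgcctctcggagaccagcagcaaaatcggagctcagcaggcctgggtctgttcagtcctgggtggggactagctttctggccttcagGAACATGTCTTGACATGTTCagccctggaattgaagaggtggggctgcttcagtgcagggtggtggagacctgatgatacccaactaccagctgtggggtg
The element of 20 bases, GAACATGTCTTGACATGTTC, begins at position -51 from the start and departs from the p53 consensus (a pair of half-sites with no spacer) at 1 base. Such an element was found in 0.0883% of 32851 RefSeq promoter windows of the same length, searched on both strands. The window of the downstream start held none. The motifs searched were chosen with these sequences in view, and a match is a description of letters.

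*Cdkn1a* fell early and stayed low. It was 971 and 1540 TPM at D0, 559 and 604 at W1, 330 and 361 at W2, 528 and 300 at W6, and 419 and 459 at W12. Both D0 libraries were above all 8 later ones, of which the W1 pair were the highest. The change was -1.07 at W1 (SE 0.28, limma adjusted P = 0.0471), -1.82 at W2 (adjusted P = 0.00385), -1.62 at W6 (adjusted P = 0.00375) and -1.48 at W12 (adjusted P = 0.00371). At W2 the mean TPM was 3.63-fold lower than at D0. From W1 to W2 the change was -0.75 (adjusted P = 0.284). Without D0 replicate 2, the library with the most *Cdkn1a*, the changes were -0.74 at W1 (adjusted P = 0.173), -1.49 at W2 (adjusted P = 0.0196), -1.28 at W6 (adjusted P = 0.0227) and -1.14 at W12 (adjusted P = 0.0241). The W1 call also ended without either W1 library (adjusted P = 0.188 and 0.193), either W2 library (0.0807 in both cases) or either W12 library (0.0866 and 0.0864), with quantile normalization (0.0604), with eBayes fitted without a trend (0.0617), with the filter on low TPM removed (0.196) and with just the 4 libraries compared in the fit (0.134). That last fit also ended the W6 call (0.0605). The immediate-early and stress list likewise had its highest summed TPM at D0. Among the later libraries *Cdkn1a* TPM lay lower at W2 than at W1, while the list summed to 9590 and 5890 TPM at W1 and 13790 and 7347 at W2. This list was drawn up after the data had been seen. Of its 16 genes, the number called lower was 11 at W1, then 10 at W2, 11 at W6 and 12 in the W12 libraries (9, 7, 11 and 11 with D0 replicate 2 left out), while *Hspa1a* was higher at W2 and *Ier3* at W12 (neither with D0 replicate 2 left out), among 9.89%, 15.7%, 32.4% and 43.0% of all genes called. D0 replicate 2 had both the highest *Cdkn1a* and the highest summed TPM of the list. The part of this in the fall of *Cdkn1a* was not tested.

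*Cdkn1b* (p27; chr6:134920401-134925513, plus strand), an inhibitor of CDK2 complexes that is often high in resting cells, rose while *Cdkn1a* fell. It was 9.27 and 9.94 TPM at D0, 17.9 and 18.2 at W1, 20.1 and 18.7 at W2, 13.5 and 16.2 at W6, and 9.07 and 9.20 at W12. No timepoint overlapped another, and the order from the highest was W2, W1, W6, D0 and W12. The neighbours W2 and W1 differed by 0.10 (limma adjusted P = 0.835), and D0 and W12 by 0.06 in size (adjusted P = 0.765). *Cdkn1b* rose by 0.85 at W1 (SE 0.16, adjusted P = 0.0119), by 0.94 at W2 (adjusted P = 0.00539) and by 0.57 at W6 (adjusted P = 0.0243), and it fell by 0.64 from W6 to W12 (adjusted P = 0.0242). At W2 the ratio of mean TPM to D0 was 2.02. Against D0 replicate 1 alone, the rises were 0.89 at W1 (adjusted P = 0.0291), 0.99 at W2 (adjusted P = 0.0169) and 0.62 at W6 (adjusted P = 0.0562). The W1 call also ended without W1 replicate 1 (adjusted P = 0.0703) or W1 replicate 2 (0.0986), and with just the 4 libraries compared in the fit (0.0946), and the W2 call without W2 replicate 1 (0.0609).

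The W6 rise of *Cdkn1b* was the least firm of the 3, since it also ended without D0 replicate 1 (limma adjusted P = 0.0550), W2 replicate 1 (0.0523), W2 replicate 2 (0.0520) or W6 replicate 2 (0.0825), and with just the 4 libraries compared in the fit (0.227). The fall from W6 to W12 was 0.48 in size with median-ratio scaling (adjusted P = 0.0609) and 0.46 with quantile normalization (adjusted P = 0.0648), so that call rests on the TPM scale. It also ended without W2 replicate 1 (0.0556), W2 replicate 2 (0.0554), W6 replicate 2 (0.0638), W12 replicate 1 (0.126) or W12 replicate 2 (0.0935), and with just the 4 libraries compared in the fit (0.129).

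*Cdkn1c* (p57; chr7:143458339-143461050, minus strand), an imprinted inhibitor, was rare. Its levels were 2.80 and 1.27 TPM at D0, 1.39 and 1.27 at W1, 3.45 and 3.05 at W2, 1.50 and 2.12 at W6, and 2.37 and 3.87 at W12. The D0 range covered that of W6 and reached those of W1 and W12. The largest step between successive timepoints, from W1 to W2, was 0.87 (SE 0.30, limma adjusted P = 0.253). No contrast was called. Without D0 replicate 2 the changes from D0 were -0.71 at W1, 0.16 at W2, -0.44 in the W6 libraries and 0.09 in those of W12, and none was called (lowest adjusted P = 0.206, at W1). The antisense gene *Gm44732*, listed at up to 1.09 TPM, shares 27.2% of the 31-base words of *Cdkn1c* in the opposite orientation.

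The INK4 genes *Cdkn2a* and *Cdkn2b* lie next to each other on chromosome 4, both on the minus strand, with 11645 bases between them. *Cdkn2a* spans chr4:89274471-89294653 and *Cdkn2b* chr4:89306299-89311039 (GRCm38, GENCODE M21). *Cdkn2a* has a pair of annotated transcripts that start 12461 bases apart. Cdkn2a-202, from the upstream start, is the p19ARF form, and Cdkn2a-201, from the downstream start, is the p16INK4a form. They have separate first exons of 320 and 207 bases, and then share exon 2, of 341 bases, and part of exon 3. The shared exonic sequence is 575 bases, 67.5% of Cdkn2a-201 and 64.2% of Cdkn2a-202. They share 317 coding bases, at which 0 codons start in the same frame. A gene-level TPM therefore cannot tell p16 RNA from ARF RNA.

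**Figure D3:**
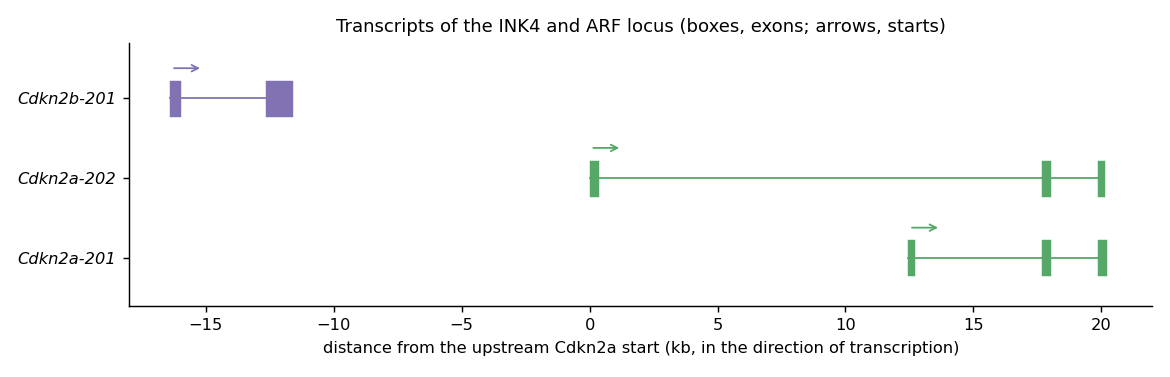
Transcripts of *Cdkn2b* and *Cdkn2a*, with exons as boxes, on an axis of distance in kb from the upstream *Cdkn2a* start, in the direction of transcription. The *Cdkn2a* transcripts have first exons that begin 12461 bases apart and then share exon 2.

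The 3 promoter windows of the locus are printed to show that the starts of p19ARF, p16INK4a and p15 have separate sequences, each 5' to 3' on the minus strand of GRCm38.p6 (RefSeq), 250 bases before to 50 after the start. Capitals mark an E2F octamer in the first and a cAMP response element (CRE) in the third, and the second held none of the motifs searched:
Cdkn2a, upstream (ARF) start, chr4:89294570-89294869: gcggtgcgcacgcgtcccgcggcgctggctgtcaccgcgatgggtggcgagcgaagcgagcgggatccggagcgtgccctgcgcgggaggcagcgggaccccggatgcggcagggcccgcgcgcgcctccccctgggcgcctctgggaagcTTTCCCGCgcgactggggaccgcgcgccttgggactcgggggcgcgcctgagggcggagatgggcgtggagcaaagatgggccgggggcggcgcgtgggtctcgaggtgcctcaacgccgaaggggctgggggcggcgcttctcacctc
Cdkn2a, downstream (p16) start, chr4:89282143-89282442: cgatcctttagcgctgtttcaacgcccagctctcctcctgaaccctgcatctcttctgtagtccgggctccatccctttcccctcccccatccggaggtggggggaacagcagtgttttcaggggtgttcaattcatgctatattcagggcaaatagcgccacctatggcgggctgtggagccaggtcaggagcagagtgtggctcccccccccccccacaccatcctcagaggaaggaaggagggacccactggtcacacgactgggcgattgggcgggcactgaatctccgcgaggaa
Cdkn2b, chr4:89310983-89311282: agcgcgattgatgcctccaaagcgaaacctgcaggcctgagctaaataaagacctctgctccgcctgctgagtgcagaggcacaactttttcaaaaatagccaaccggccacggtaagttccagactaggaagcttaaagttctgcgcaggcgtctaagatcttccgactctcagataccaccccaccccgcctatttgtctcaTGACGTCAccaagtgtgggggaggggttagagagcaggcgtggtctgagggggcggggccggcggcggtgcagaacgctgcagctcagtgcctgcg
The E2F octamer TTTCCCGC begins at position -99 from the ARF start. One of the 4 octamers searched (TTTCCCGC, TTTCGCGC, TTTGGCGC and TTTGCCGC, both strands) was present in 2.27% of all promoter windows. The CRE TGACGTCA begins at position -46 from the *Cdkn2b* start and was present in 1.79% of windows. The ARF window had a GC content of 77.0%, against 60.3% for the p16 window and 57.7% for *Cdkn2b*. SOX-type hexamers (AACAAT or ACAAAG, both strands), present in 27.0% of all windows, were in none of these 3 and none of the *Cdkn1a* and *Cdkn1b* windows. They occurred once in the *Cdk6* window, at position -117, and 2 times in the upstream *Ccnd3* window, at positions -29 and 44. In all, 9 windows of 6 members were searched, and none held the AP-1 motif TGANTCA, present in 7.81% of all windows.

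*Cdkn2a* was listed at 0 TPM in all 6 libraries of D0, W1 and W2. It was 0.0604 and 0.0348 TPM at W6, and 1.04 and 1.07 TPM at W12. The W12 libraries were above all others, at a level that is low beside the other members. With the filter on low TPM removed, limma on 38965 genes gave a difference between W12 and D0 of 1.04 on the log2(TPM + 1) scale (SE 0.06, adjusted P = 0.000290), whose spread rests on libraries listed at 0. Neither *Cdkn2a* nor *Cdkn2b* shared any 31-base word with another gene's transcripts.

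*Cdkn2b* was 4.76 and 7.86 TPM at D0, 9.43 and 12.8 at W1, 11.2 and 12.5 at W2, 5.49 and 14.6 at W6, and 19.0 and 26.7 at W12. Both W12 libraries were above all others, both W1 and both W2 libraries were above D0, and the W6 libraries lay apart, one within the D0 range and one above W2. It rose by 1.72 at W12 against D0 (SE 0.40, limma adjusted P = 0.00909), a ratio of 3.62 in mean TPM. With D0 replicate 2 left out, the rise was 2.03 (adjusted P = 0.0194), and without W12 replicate 2 it was 1.48 and no longer called (adjusted P = 0.0696). From W6 to W12 the change was 1.23 (adjusted P = 0.0621), and it was 1.86 without W6 replicate 2 (adjusted P = 0.00903) but 0.60 without W6 replicate 1 (adjusted P = 0.259). Without W6 replicate 1 the change from D0 to W6 was 1.12 (adjusted P = 0.0403) and without W6 replicate 2 it was -0.14 (adjusted P = 0.783), against 0.49 with both. Under median-ratio scaling the change from W6 to W12 was 1.39 (adjusted P = 0.0429) and under quantile normalization 1.39 (adjusted P = 0.0379). The endothelial markers rose at the same timepoint, with 4 of 6 tested and all 4 called higher at W12 (also 4 with D0 replicate 2 left out), and their part in the W12 values of *Cdkn2a* and *Cdkn2b* was not tested.

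Taking the families as sums, the D cyclins went from 569 and 727 TPM at D0 to 1502 and 1657 at W1, and down to 269 and 291 at W12. *Ccnd2* made up 78.4 and 82.3% of that sum at D0, 90.5 and 91.2% at W1, 92.9 and 91.9% at W2, 85.8 and 76.6% at W6, and 62.2 and 57.4% at W12. At W12 *Ccnd1* and *Ccnd3* together thus held a larger share than in any other library, although neither was called higher there. *Cdkn1a* made up between 93.3 and 99.3% of the CIP/KIP sum in every library.

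The ratio of *Cdkn1a* to *Ccnd2* turned over and back. It was 2.18 and 2.58 at D0, 0.411 and 0.400 at W1, 0.236 and 0.259 at W2, 0.692 and 0.596 at W6, and 2.50 and 2.75 at W12. The W12 ratios lay near those of D0, but at 167 and 168 TPM of *Ccnd2* where D0 had 446 and 598, and at 419 and 459 TPM of *Cdkn1a* where D0 had 971 and 1540. These ratios are a description and were not tested.

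**Figure D4:**
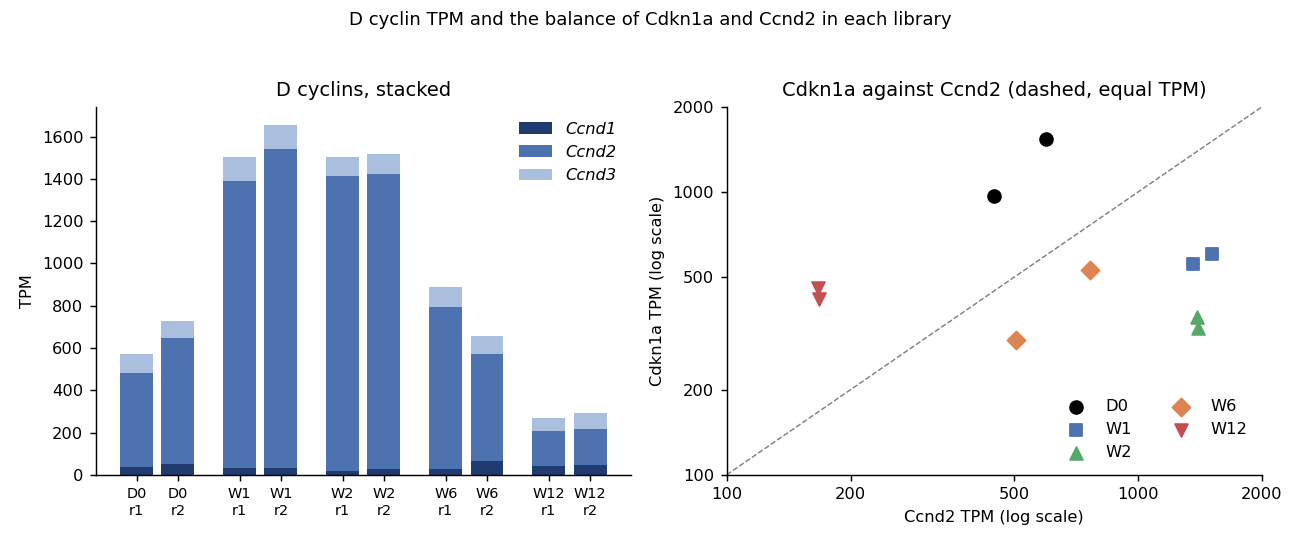
Left, TPM of the 3 D cyclins stacked for each library (r1 and r2, replicates 1 and 2). Right, *Cdkn1a* TPM against *Ccnd2* TPM on log axes, 1 point a library, with a dashed line at equal TPM. D0 and W12 libraries lie above the line and W1, W2 and W6 libraries below it.

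Of the other components on which the members act, 5 partner kinases and E cyclins were examined. *Cdk4*, the other kinase of the D cyclins, was between 241 and 401 TPM in all libraries, above *Cdk6* in each, and was not called in any contrast (limma adjusted P = 0.0814 in the F test). *Ccne1*, a cyclin E gene that E2F controls, was 7.04 and 1.82 TPM at D0 and 19.5 and 20.2 at W6. It rose by 2.13 at W6 (SE 0.42, adjusted P = 0.00646) and by 1.50 at W12 (adjusted P = 0.0196). In the fit lacking D0 replicate 2, its change was 1.37 at W6 (adjusted P = 0.0123) and 0.75 at W12, no longer called (adjusted P = 0.0680). *Ccne2* rose by 1.42 at W12, *Cdc25a*, a phosphatase that activates CDK2, fell by 1.54 and *Cdk2* by 0.74. When D0 replicate 2 was dropped, the calls of *Ccne2* (0.55, adjusted P = 0.169) and *Cdk2* (-0.54, adjusted P = 0.0917) at W12 ended and that of *Cdc25a* held (-1.79, adjusted P = 0.00499). In this list 0 of 5 were called at W1 and W2, 1 higher and 1 lower at W6, and 2 higher and 2 lower at W12, where quantile normalization left 1 lower. The background was 32.4% of all genes at W6 and 43.0% at W12. Against D0 replicate 1 alone, there were 2 higher and 1 lower at W6, and 0 higher and 1 lower at W12. Its median change was 0.54 at W6 and -0.14 at W12, where the medians of all genes were 0.08 and -0.08.

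Among 5 further INK4 and pocket proteins, no gene was called at W1 or W2, *Rbl1* (p107) was called higher at W6 by 0.99, and *Rbl2* (p130) fell by 0.88 at W12, 1 of 5 each where the background was 32.4% and 43.0%. Without D0 replicate 2 the change of *Rbl1* was 0.72 (adjusted P = 0.0385) and the call of *Rbl2* ended (-0.54, adjusted P = 0.0509), while *Rbl2* was called higher at W2 (0.67, adjusted P = 0.0467). *Rb1* was between 6.33 and 16.0 TPM, with a change of -0.77 at W1 (limma adjusted P = 0.0672). *Cdkn2c* and *Cdkn2d*, the remaining INK4 genes, were between 18.4 and 36.8 and between 53.1 and 101 TPM, so that p19INK4d RNA was the most abundant INK4 RNA in every library. Neither was called in a contrast.

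Of 10 E2F and DP factors, 0 were called at W1, 1 was higher at W2, 5 were higher at W6, and 2 were higher and 1 lower at W12. The W2 and W12 counts lie below the background of 15.7% and 43.0%. *E2f1* was 15.8 and 7.65 TPM at D0 and 24.7 and 25.3 at W6, a rise of 1.11, and it fell by 0.98 from W6 to W12. *E2f8*, a repressor of the family, rose by 0.96 at W6. *Tfdp2*, a dimer partner of E2F, rose by 1.56 at W2, and *Tfdp1* rose by 0.88 at W6. With median-ratio scaling the W12 count was 4 higher and 0 lower. The list's median change was 0.82 at W6, where the median of all genes was 0.08 and the background 32.4%. With D0 replicate 2 left out, the counts were 1 higher at W1, 1 higher and 1 lower at W2, 3 higher at W6 and 1 higher at W12, and the W6 median was 0.47. The W6 calls of *E2f1* (0.63, adjusted P = 0.0555) and *E2f8* (0.82, adjusted P = 0.0699) then ended, and those of *Tfdp1* at W6 (0.57, adjusted P = 0.0347) and *Tfdp2* at W2 (1.82, adjusted P = 0.00262) held.

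Of 10 genes that turn the members over or activate their kinases, 0 were called at W1 and W2. At W6 there were 2 higher and 2 lower, and at W12 1 higher and 3 lower, with a median change of 0.04 at W6 and 0.09 at W12. The background there was 32.4% and 43.0%, and the medians of all genes were 0.08 and -0.08. In the fit lacking D0 replicate 2, there was 1 lower at W1, 1 lower at W2, 1 higher at W6, and 1 higher and 3 lower at W12. *Cks1b*, which with *Skp2* marks p27 for destruction, rose by 1.29 at W6 and by 1.39 at W12. *Skp2* rose by 1.46 at W6, where its TPM were 9.98 and 15.4 against 5.97 and 2.42 at D0. *Ambra1*, which directs D cyclins to destruction, fell by 0.86 at W6 and by 1.57 at W12. *Fbxo31*, another ligase subunit for cyclin D1, fell by 0.80 at W6 and by 1.06 at W12, and *Gsk3b*, whose kinase marks cyclin D1 for export and turnover, fell by 1.09 at W12. When D0 replicate 2 was dropped, the W6 calls of *Skp2* (0.94, adjusted P = 0.0514), *Ambra1* (-0.56, adjusted P = 0.176) and *Fbxo31* (-0.74, adjusted P = 0.131) ended. Those of *Cks1b* were then 0.88 at W6 and 0.98 at W12, and those of *Ambra1* (-1.26), *Fbxo31* (-0.999) and *Gsk3b* (-0.85) at W12 also held.

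Among 10 regulators of the INK4 and ARF locus and of p53, none was called higher against D0, and 3 were lower at W1, 5 were at W2, and 4 each at W6 and W12. The shares of all genes called were 9.89%, 15.7%, 32.4% and 43.0%, so the W6 and W12 counts are near the background. Under both other scalings 1 was called higher at W12. Against D0 replicate 1 alone, the counts were 2 lower at W1, 3 lower at W2, 4 lower at W6, and 5 lower and 1 higher at W12. The list's median was -0.51 at W2 and -0.71 at W6, against 0.06 and 0.08 over all genes tested. *Mdm2*, the p53 ligase and itself a p53 target, was 39.7 and 56.6 TPM at D0, and it fell by 0.79 at W1 (SE 0.19, limma adjusted P = 0.0310), by 1.06 at W2 (adjusted P = 0.00675) and by 1.07 at W6 (adjusted P = 0.00367). Without D0 replicate 2 the W1 call ended (-0.54, adjusted P = 0.0973), and the changes were -0.81 at W2 (adjusted P = 0.0241) and -0.82 at W6 (adjusted P = 0.0156). From W6 to W12 *Mdm2* rose by 0.79 (adjusted P = 0.0206), to 36.9 and 40.8 TPM. *Trp53* was between 89.6 and 126 TPM through W6 and was not called there, and it fell by 1.12 at W12 (adjusted P = 0.00208), to 47.7 and 60.8 TPM. *Ets2*, an activator of p16, fell by 1.76 at W1 and by 2.56 at W12. *Ets1* fell by 1.49 at W6 and rose by 2.05 from W6 to W12, when the endothelial markers also rose, and their part in it was not tested. *Id1*, which opposes ETS factors at p16, fell by 2.30 at W1 and by 1.42 at W2. With D0 replicate 2 left out, the W2 call of *Id1* ended (-1.49, adjusted P = 0.0574), *Ets1* was called higher at W12 (0.79, adjusted P = 0.0495), and the other calls against D0 given for *Trp53*, *Ets2*, *Ets1* and *Id1* held.

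The genes of DNA replication and mitosis serve as readouts of cycling, and their courses are set beside that of *Ccnd2* with no test of a difference. Of 14 S phase genes, 0 were called at W1, 3 were higher at W2, 13 at W6 and 7 at W12, where the shares of all genes called were 9.89%, 15.7%, 32.4% and 43.0%. The W12 count is thus near the background. Their median change at W6 was 1.20, beside 0.08 over all genes tested. Their summed TPM was 815 and 406 at D0, 645 and 578 at W1, 878 and 763 at W2, 1389 and 1537 at W6, and 1053 and 1156 at W12. *Rrm2*, a subunit of ribonucleotide reductase, was 51.0 and 16.7 TPM at D0, 33.7 and 33.2 at W1, and 174 and 163 at W6, a rise of 2.48 (SE 0.41, limma adjusted P = 0.00283). In the fit lacking D0 replicate 2, which had the lowest S phase sum, the rise of *Rrm2* was 1.70 (adjusted P = 0.00168), and of the list 2 were lower at W1, 0 were called at W2, 8 were higher at W6 and 2 at W12, with a W6 median of 0.80. Of 14 mitosis genes, 5 were lower at W1, 1 was lower at W2, 5 were higher at W6 and 1 at W12, which at W2, W6 and W12 is near or below the same background shares. The list's median was -0.70 at W1 and 0.63 at W6, where all genes tested had medians of 0.09 and 0.08. *Ccnb1*, the mitotic cyclin B, was 131 and 80.6 TPM at D0 and 46.7 and 37.5 at W1, where it fell by 1.28 (SE 0.22, adjusted P = 0.00830). When D0 replicate 2 was dropped, that change was -1.63 (adjusted P = 0.00315), and of the list 11 were lower at W1, 3 were lower at W2, 1 was higher at W6 and 1 at W12, with a W6 median of 0.19. *Mki67* was between 10.7 and 29.1 TPM and was not called (adjusted P = 0.172 in the F test). At W1, the timepoint of the highest mean *Ccnd2*, no S phase gene was called higher and 5 mitosis genes were lower (11 without D0 replicate 2), and at W6, where the S phase sum was highest, *Ccnd2* was not called against D0 (0.27, 95% interval -0.22 to 0.75). D0 replicate 1 had about the S phase sum of W2, and D0 replicate 2 the lowest of all libraries.

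**Figure D5:**
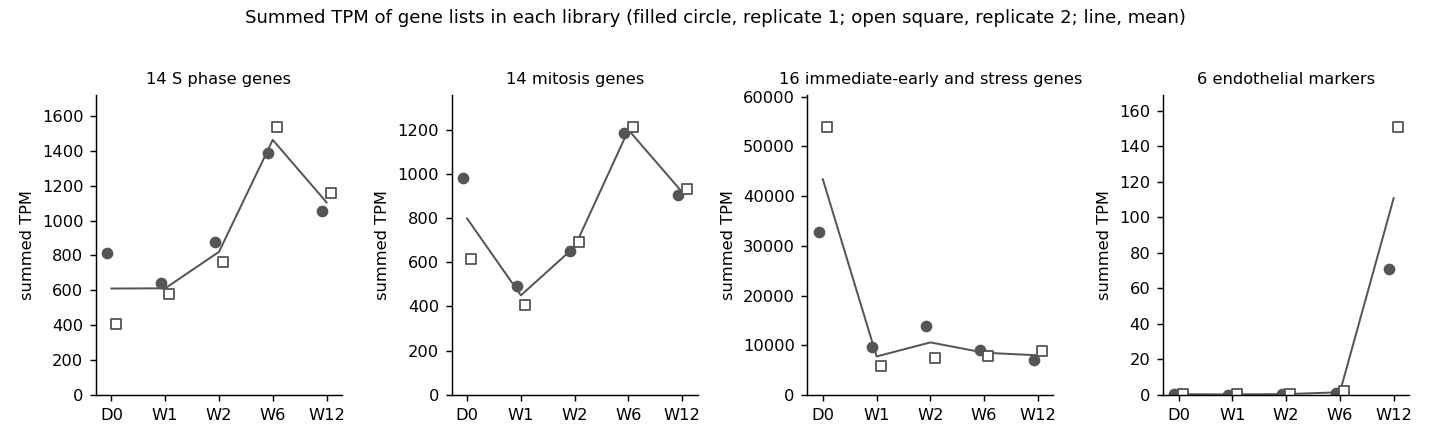
Summed TPM (vertical axes from 0, each with its own scale) of 14 S phase genes, 14 mitosis genes, 16 immediate-early and stress genes and 6 endothelial markers in each library, with replicate 1 as filled circles, replicate 2 as open squares and the mean as a line. S phase and mitosis sums were highest at W6, the immediate-early and stress sum at D0 and the endothelial sum at W12.

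For each member that passed the F test, the 3 genes with the most similar course were found by Pearson's *r* of log2(TPM + 1) over the 10 libraries, which share their timepoints. This is a description over all 13110 genes. *Ccnd2* was most like *Plagl2* (*r* = 0.993), *Mrtfa* (*r* = 0.990) and *Efnb1* (*r* = 0.989), and *Efnb1* was 112 and 121 TPM at W1 and 26.6 and 27.9 at W12. *Cdkn1a* was most like *Dusp7* (*r* = 0.965), a phosphatase of ERK, *Gm9887* (*r* = 0.965) and *Vps37b* (*r* = 0.964). *Cdkn1b* was most like *4933431E20Rik* (*r* = 0.976), *Smpdl3a* (*r* = 0.971) and *Maml2* (*r* = 0.969). *Cdkn2b* was most like *Pcdhb16* (*r* = 0.956), *Slfn10-ps* (*r* = 0.929) and *Resf1* (*r* = 0.914). *Ccnd3* was most like *Gna11* (*r* = 0.966), *Unc119b* (*r* = 0.962) and *Vps4a* (*r* = 0.960), and *Cdk6* most like *Pawr* (*r* = 0.935), *Fbxo45* (*r* = 0.933) and *Usp9x* (*r* = 0.933).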

How the data were processed

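RNA-seq had been made with the SMARTer low-input kit in 10 libraries of sorted EpdSCs, with 2 biological replicates at D0 and after 1, 2, 6 and 12 weeks of DOX. Groups and replicate numbers were taken from the sample labels. The authors trimmed the reads with Skewer, quantified transcripts with Salmon 1.4.0 on a GENCODE index of GRCm38 that held the transgene, summed them to genes with Tximport 1.12.3, and deposited TPM. Whether quantification used strand is not given in the sources used here. TPM carry no counts, so depth is unknown and the DESeq2 test of the study could not be run on them. The table of 4 placode libraries holds the authors' own comparison and was not used.

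The 13110 genes that averaged 1 TPM or more were tested on log2(TPM + 1) with limma 3.58.1 in R 4.3.3, in one fit of 5 group means over 10 libraries, with eBayes and a trend. P values were adjusted by Benjamini-Hochberg over all genes tested, and a gene was called at an adjusted P under 0.05. This scale understates changes of genes with low TPM. The fit was also run on simulated data, with independent normal noise alike at every timepoint and changes placed at W2 alone. That setting lacks the uneven D0 pair and the W12 grafts, so it says nothing about them.

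Members and gene lists were chosen with earlier results of these data known. All 9 members are named, together with up to 5 genes a list by the lowest P of the F test, *Cdk4*, *Rb1*, *Trp53*, *Mdm2* and *Mki67*, and the 3 genes most like each varying member. *Skp2*, *E2f1*, *Xist*, *Ddx3y*, *Krt5*, *Krt15*, *Krt17*, *Krt79*, *Lgr5*, overlapping genes and the immediate-early list were chosen after values were seen. Positions and 31-base words are from GENCODE M21 and promoters from RefSeq, both on GRCm38, with 6 of 9 members matched. Python 3.11.15 was used for the other steps.

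The alternatives were a pseudocount of 0.1, quantile normalization, scaling by median ratios, eBayes with no trend, no filter beyond a TPM above 0, a filter at 5 TPM, a fit of just the 4 libraries compared, a replicate block, an absolute log2 change of at least 1 for a call, and leaving out each library. Crossed replicate numbers, and the gene lists without D0 replicate 2, were tried once the data were known.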

Additional observations from a re-analysis of the deposited data

How the results depend on the processing

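Depth is unknown for TPM, and 2 libraries a timepoint limit every test. Over all members, contrasts and alternatives, 940 values kept their direction and their side of the threshold, 46 lost a call, 13 gained one and 33 changed sign, of which 0 were called in either fit. Where a count moved by over 1.5 times, its cause was not tested unless fewer genes or libraries entered by construction. With all genes with a TPM above 0 tested, 606 genes were called at W1 against D0, 1011 at W2 against D0 and 940 at W6 against W2, and 0 members in the last. Fitting just the 4 libraries compared, the genes called were 411 at W1, 1086 at W2 and 1094 at W6 against D0, 80 from W1 to W2, 966 from W2 to W6 and 887 from W6 to W12. The members called were then 0 at W1, 0 at W6, 0 from W2 to W6 and 1 from W6 to W12. A pseudocount of 0.1 gave 7 genes from W1 to W2. With an absolute log2 change of at least 1 also required, 1288 genes were called at W2, 2350 at W6, 3156 at W12, 1129 from W2 to W6, 1390 from W6 to W12 and 4277 by the F test, and the members were 1 at W6, 1 from W6 to W12 and 3 by the F test.

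Leaving out each library in turn, the members called ranged from 1 to 3 at W1, 2 to 4 at W2, 1 to 3 at W6, 2 to 4 at W12, 0 to 2 from W2 to W6, 1 to 3 from W6 to W12 and 3 to 7 by the F test. The genes called ranged from 377 to 1773 at W1, 652 to 2647 at W2, 2356 to 5047 at W6, 3362 to 6291 at W12, 0 to 83 from W1 to W2, 207 to 3179 from W2 to W6, 761 to 3223 from W6 to W12 and 5008 to 8145 by the F test. The lowest counts came without W1 replicate 2 at W1, W2 replicate 2 at W2, D0 replicate 2 at W6, any of W1 replicate 1, W2 replicate 1 and W2 replicate 2 from W1 to W2, W2 replicate 1 from W2 to W6, and W12 replicate 1 at W12, from W6 to W12 and by the F test. A timepoint left with 1 library was taken to vary like the others.

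The 33 changes of sign, in 17 of the members' contrasts, were as follows. Under median-ratio scaling the log2 change was -0.0521 for *Ccnd1* and 0.0252 for *Cdkn1b* (W6 and W12 against D0), -0.0327 for *Cdk6* at W1, 0.16 for *Ccnd1* from W6 to W12 and 0.0045 for *Ccnd2* from W1 to W2. Under quantile normalization it was -0.0083 for *Ccnd1* at W6, 0.12 for *Cdkn1b* at W12, 0.13 for *Ccnd1* from W6 to W12 and -0.0453 for *Ccnd3* from W2 to W6. Leaving out each library in turn, *Ccnd1* ranged from -0.54 to 0.59 at W6, -0.22 to 0.25 at W12 and -0.57 to 0.56 from W6 to W12, and *Ccnd2* from -0.0347 to 0.56 at W6 and -0.12 to 0.0379 from W1 to W2. *Ccnd3* ranged from -0.0506 to 0.0794 from W2 to W6, and *Cdk6* from -0.067 to 0.20 at W1, -0.0445 to 0.22 at W2 and -0.11 to 0.15 from W1 to W2. *Cdkn1a* ranged from -0.20 to 0.61 from W2 to W6 and -0.27 to 0.54 from W6 to W12, and *Cdkn1c* from -0.71 to 0.0363 at W1 and -0.44 to 0.30 at W6. *Cdkn2b* ranged from -0.14 to 1.12 at W6, -0.11 to 0.30 from W1 to W2 and -0.99 to 0.28 from W2 to W6. The cause was not tested.

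Replicate numbers do not pair the mice: deviations of same-numbered libraries correlated between -0.129 and 0.182 over the 7 comparisons. With the replicate block, 2 members were called for W1 against D0, 4 for W2, 2 for W6 and 4 for W12. Between timepoints 1 member was called from W2 to W6 and 3 from W6 to W12, and 6 passed the F test. Over all genes tested, the W1 comparison then had 1057 calls, W2 had 1709, W6 had 3761 and W12 had 5259. The step from W1 to W2 had 6 genes, that from W2 to W6 had 1396 and that from W6 to W12 had 2163. By the F test 6843 genes passed. With the block the call of *Cdkn1a* at W1 ended (-1.07, adjusted P = 0.0741), and *Ccnd1* at W2 (-0.95, adjusted P = 0.0494) and *Cdkn2b* from W6 to W12 (1.23, adjusted P = 0.0224) were called. With the numbers crossed in the block, an alternative added after the data had been seen, 3 members were called at W1, 2 at W6 and 2 from W6 to W12, among 1225, 4291 and 2666 genes.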
